A study of Mus musculus with 16 samples.

Results

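The synaptic genes described here are 33 genes of vesicle release and the postsynaptic side, listed by name, of which 31 could be read on the arrays, out of 19938 genes tested. A gene was read from a probe set, a group of array probes for 1 transcript, whose only gene symbol in the platform annotation was that gene. Where several probe sets qualified, the one with the highest mean was used, except that all 3 were followed for Unc13a. Vamp2, whose probe set also names another gene, and Grin1, which no probe set names, were not analysed here. RNA from the whole brain of male mice aged 8 weeks was measured on a microarray, the Affymetrix Mouse Gene 1.0 ST, with 4 arrays in each of 4 groups. The groups were naive C57BL/6 mice, C57BL/6 mice 24 h after permanent middle cerebral artery occlusion (an experimental stroke), naive mice labelled TNF knockout, and mice labelled TNF knockout 24 h after the same surgery. The naive mice had no sham surgery according to the labels, and the tissue held the stroke side together with the rest of the brain. The labels do not say how the knockout allele was made, nor that the 4 arrays of a group come from separate mice, so p-values measure the spread between these arrays.

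A synapse passes a signal when calcium enters the nerve terminal and vesicles filled with transmitter fuse with the membrane at the active zone. Munc13 and RIM proteins make vesicles ready, syntaxin and SNAP-25 drive fusion, synaptotagmin senses calcium and complexin holds the fusion machinery in check. On the receiving side glutamate receptors are held in the postsynaptic density by PSD-95 and SHANK scaffolds, and calcium entering through NMDA receptors activates CaM kinases. Synaptic transmission fails early in brain tissue deprived of blood flow, and the neurons of the infarct are lost in the hours and days that follow.

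All values are log2 probe set summaries, and levels were compared only within a probe set. Array medians lay between 6.01 and 6.05. Tnf itself was higher, not lower, in the arrays labelled TNF knockout: it read 5.31 ± 0.33 (SD, n = 4) in naive C57BL/6 and 6.41 ± 0.19 (SD, n = 4) in the naive knockout label, a difference of 1.11 ± 0.14 (SE, limma adjusted p = 0.00056). After stroke the difference was 1.24 ± 0.14 (SE, limma adjusted p = 0.0001). Genotype names below are therefore those of the labels. The sample names also carry a prefix whose meaning the labels do not give: KL42 for all C57BL/6 arrays, KL76 for naive replicates 1 to 3 and stroke replicate 1 of the knockout label, and KL82 for its naive replicate 4 and stroke replicates 2 to 4.

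In C57BL/6 brain, 6 of 31 synaptic genes fell after stroke and none rose, at an adjusted p under 0.05. Over all genes tested the share called lower was 0.336 percent and the share called higher 1.34 percent. The 6 were Unc13a, Slc30a3, Camkk2, Cacna1a, Shc3 and Shank1, and their decreases ran from 22.5 to 34.1 percent. The 31 genes were chosen with earlier results of these data known. Their shares, here and below, therefore describe them and are no test of an excess over all genes. At an unadjusted p under 0.05 in limma 13 of 31 were lower, against 7.34 percent of all genes, and 1 was higher, Sv2b, against 9.74 percent. The median change over the 31 genes was -0.17, against -0.01 over all genes, and 24 of 31 changes lay below 0, against 51.2 percent of all genes. For 10 of 31 all 4 stroke arrays lay below all 4 naive arrays, against 3.23 percent of all genes, and for none did they lie above, against 5.03 percent. Besides the 6 genes called, those 10 included Stx1a, Rims1, Grin2a and Shank3. Leaving out naive replicate 1, 2 or 3 or stroke replicate 3 or 4 of C57BL/6, or naive replicate 2 of the knockout label, left 3 genes past the threshold, Unc13a, Slc30a3 and Camkk2. These 3 passed in all 16 fits that left out an array. Over all genes the 67 called lower became 26, 33, 29, 11, 29 and 32 in the fits that left 3, in the order named.

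In the arrays labelled TNF knockout, 4 of 31 fell after stroke, Unc13a, Camkk2, Shank1 and Shc3, and none rose. The background shares were 0.105 percent lower and 0.537 percent higher. Unadjusted, 15 of 31 were lower at a limma p under 0.05, against 4.17 percent of all genes, and 0 higher, against 4.22 percent. The median change was -0.14, against 0 over all genes, and 25 of 31 changes lay below 0, against 49.9 percent. The groups did not overlap, with stroke lower, for 5 genes, Unc13a, Rab3a, Slc30a3, Camkk2 and Shc3, against 3.07 percent of all genes, and with stroke higher for none, against 2.8 percent. The number past the threshold dropped to 0 without naive replicate 1, naive replicate 2 or stroke replicate 4, to 1 without stroke replicate 3 and to 2 without stroke replicate 2. Over all genes the 21 called lower became 4, 2, 3, 6 and 8 in these fits, in the order named. With the sample name prefix as a term in the model the number of the 31 genes past the threshold was also 0, with adjusted p-values of 0.173 for Unc13a, 0.114 for Camkk2 and Shank1, and 0.115 for Shc3. With that term 4 of all genes were called lower.

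The mean of both stroke changes, built from the same 16 arrays, put 8 of 31 genes past the threshold, all lower. Of all genes, 1.03 percent were called lower and 1.78 percent higher. Unadjusted, 19 of 31 were lower at a limma p under 0.05, against 7.71 percent, and 1 higher, against 8.64 percent, and 26 of 31 changes lay below 0, against 50.8 percent. Shank1 had the largest decrease of the 19938 genes on this measure, and Camkk2 ranked 4, Shc3 5, Unc13a 8, Slc30a3 13 and Shank3 16. The other called members, Cacna1a and Rims1, ranked 162 and 313. With the prefix as a term 5 of the 8 passed, Unc13a, Slc30a3, Camkk2, Shank1 and Shc3, whereas Cacna1a (adjusted p = 0.0536), Shank3 (adjusted p = 0.0699) and Rims1 (adjusted p = 0.107) did not. With that term 75 of all genes were called lower, against 205 without it. Called lower in each genotype separately were 4 of 31, against 0.0351 percent of all genes, and not overlapping in each were also 4, against 0.391 percent. Changes below 0 in each were found for 22 of 31, against 28.9 percent. As above, these shares belong to genes chosen with earlier results of these data known.

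**Figure D1:**
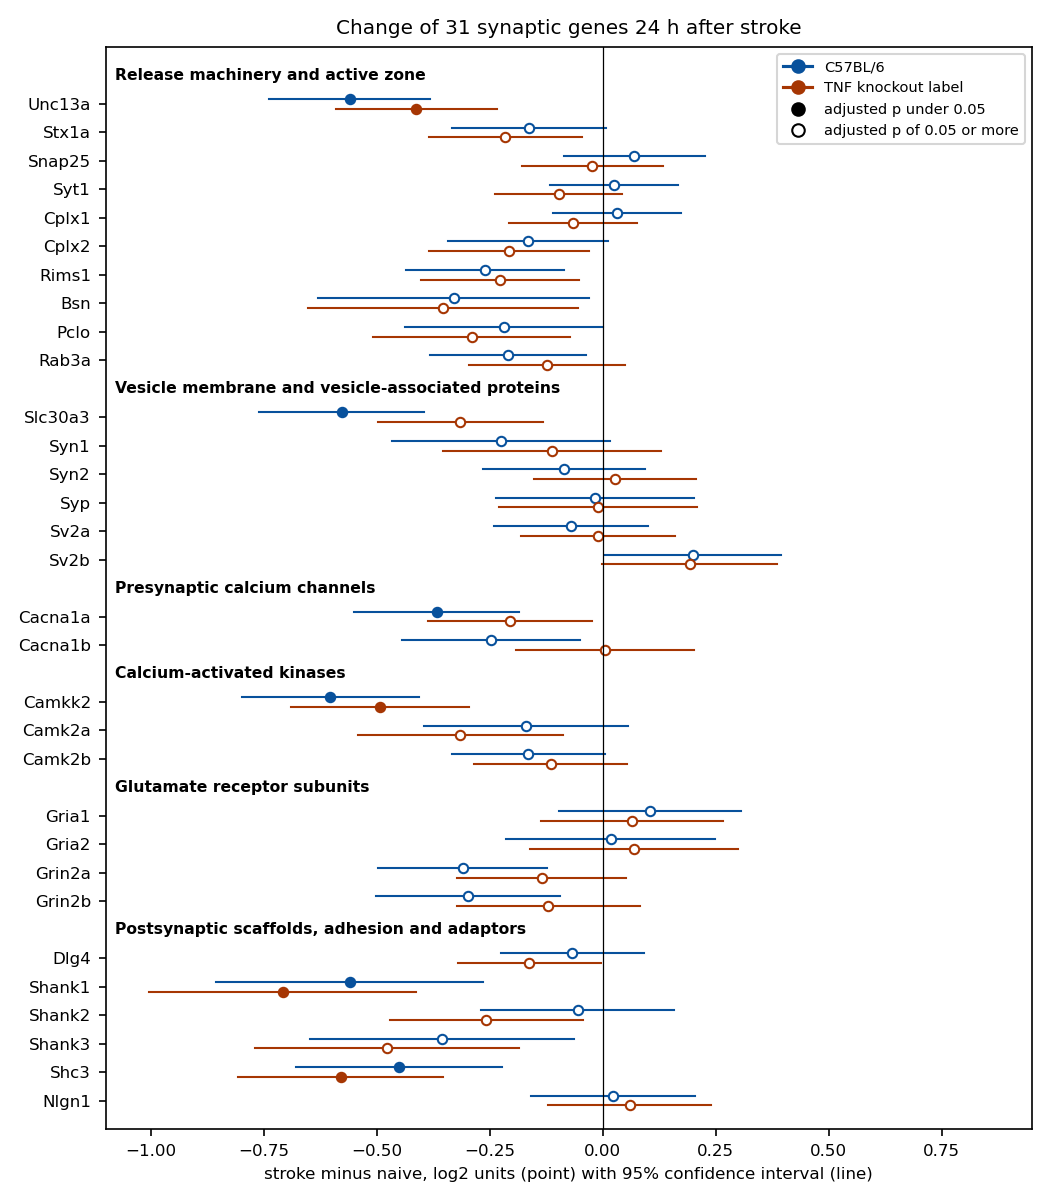
Stroke minus naive (log2, horizontal axis) for each of the 31 measured genes, grouped by role, with C57BL/6 and the TNF knockout label side by side; points are fitted changes and bars their 95 percent confidence intervals. Shank1, Camkk2, Shc3 and Unc13a lie to the left of 0 in each genotype, while Snap25, Syt1 and Syp straddle 0.

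Unc13a, which encodes Munc13-1, the protein that primes vesicles for release, read 8.90, 9.03, 8.84 and 8.68 in the naive C57BL/6 arrays and 8.21, 8.47, 8.23 and 8.30 after stroke. The arrays of the knockout label read 8.83, 8.72, 8.78 and 8.63 naive and 8.39, 8.31, 8.24 and 8.37 after stroke. All stroke arrays lay below all naive arrays in each genotype. It fell by 0.56 ± 0.085 in C57BL/6 (SE, adjusted p = 0.0016) and by 0.41 ± 0.085 in the knockout label (SE, adjusted p = 0.0245), decreases of 32.2 and 24.9 percent.

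The 3 probe sets of Unc13a went the same way after stroke, but only probe set 10579548 differed between genotypes in naive brain past the threshold. Probe set 10579554 is the one described above. Probe set 10579550 read 8.09, 8.33, 8.17 and 8.03 in naive C57BL/6 and 7.77, 7.99, 7.82 and 7.57 after stroke, a change of -0.37 ± 0.096 (SE, adjusted p = 0.0592 over all single-symbol probe sets). In the other genotype its change was -0.29 ± 0.096 (SE, adjusted p = 0.316). The stroke arrays lay below the naive arrays in each genotype. Neither change passed the threshold alone, whereas the mean change of -0.33 did (adjusted p = 0.0101).

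Probe set 10579548 was dimmer. It read 6.12, 5.94, 6.24 and 6.14 in naive C57BL/6 and 5.94, 5.87, 5.77 and 5.92 after stroke, and those groups touched at 5.94. For the knockout label the values were 6.55, 6.45, 6.44 and 6.59 naive and 6.04, 6.24, 6.12 and 6.17 after stroke, with no overlap. The stroke change was -0.24 ± 0.08 in C57BL/6 (SE, adjusted p = 0.143) and -0.37 ± 0.08 in the knockout label (SE, adjusted p = 0.0366). In naive brain this probe set was higher in the knockout label by 0.40 ± 0.08 (SE, adjusted p = 0.0333), with no overlap, where the other probe sets differed by -0.02 and -0.12 (adjusted p = 0.929 and 0.488). Only probe set 10579548 thus had a naive difference past the threshold, whereas all 3 gave a mean stroke change past the threshold.

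**Figure D2:**
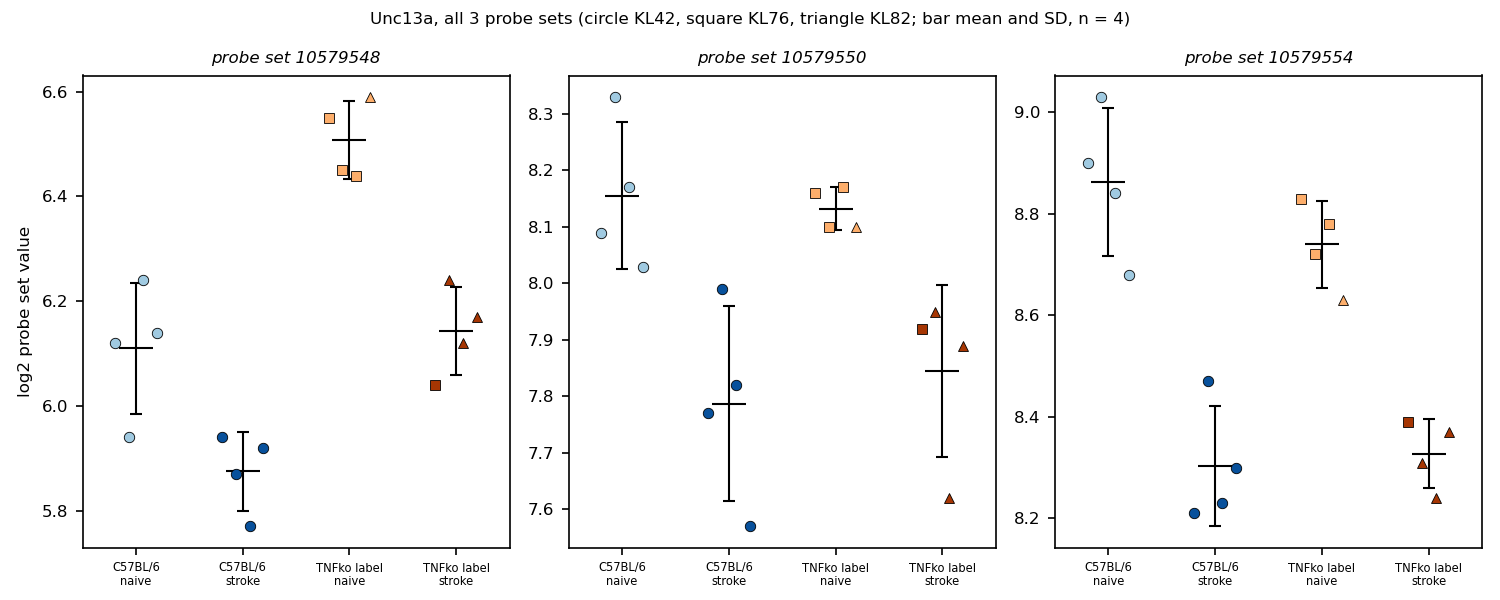
Log2 values of the 3 Unc13a probe sets in each array by group; bars are the group mean and SD (n = 4) and symbols the sample name prefix. The stroke arrays sit below the naive arrays of their genotype for every probe set except for the touch at 5.94 in probe set 10579548, whose naive knockout label arrays, 6.44 to 6.59, lie above the naive C57BL/6 arrays.

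Among the other proteins of the active zone, Rims1 (RIM1, a scaffold that ties vesicles to calcium channels) read 9.76, 9.74, 9.68 and 9.56 in naive C57BL/6 and 9.32, 9.46, 9.42 and 9.50 after stroke. Values of 9.67, 9.75, 9.53 and 9.39 were read in the naive knockout label, and 9.42, 9.39, 9.27 and 9.35 after stroke. The C57BL/6 groups did not overlap, and those of the knockout label did, at naive replicate 4. Neither change passed alone (-0.26, adjusted p = 0.127, and -0.23, adjusted p = 0.391), and their mean of -0.24 did (adjusted p = 0.028). That call was lost in 7 of the 16 fits that left out an array, with adjusted p-values of 0.0544 to 0.0728.

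The giant active zone scaffolds Bassoon and Piccolo had mean changes at least as large as that of Rims1 that missed the threshold. Bsn changed by -0.34 ± 0.1 (SE, adjusted p = 0.0789) and ranked 61 among decreases, and Pclo by -0.25 ± 0.074 (SE, adjusted p = 0.0744). The arrays of Bsn were widely spread, since it read 8.22, 8.12, 7.91 and 7.58 in the naive knockout label and 7.97, 7.58, 7.36 and 7.51 after stroke. Stx1a, the syntaxin of the fusion complex, had a mean change of -0.19 (adjusted p = 0.088), Cplx2, a complexin, -0.19 (adjusted p = 0.105), and Rab3a, a GTPase on vesicles, -0.17 (adjusted p = 0.144).

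Snap25, Syt1 and Cplx1 showed smaller differences. Snap25, the partner of syntaxin in the fusion complex, read 12.13 to 12.19 in naive C57BL/6 and 12.16 to 12.26 after stroke, with a mean change over both genotypes of 0.02 (95 percent interval -0.09 to 0.13). Syt1, the calcium sensor, had a mean change of -0.04 (95 percent interval -0.14 to 0.06), and Cplx1, the other complexin, -0.02 (95 percent interval -0.12 to 0.08). For these genes the intervals end short of the -0.49 of Unc13a. Of the 10 release and active zone genes measured, 2 fell on the mean measure, against 1.03 percent of all genes, with a median of -0.19.

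Slc30a3 encodes ZnT3, the transporter that loads zinc into the vesicles of a subset of glutamatergic terminals. It read 9.0, 9.06, 9.26 and 9.21 in naive C57BL/6 and 8.65, 8.58, 8.39 and 8.60 after stroke, a change of -0.58 ± 0.087 (SE, adjusted p = 0.0015). The other genotype read 8.98, 8.74, 8.87 and 8.80 naive and 8.62, 8.61, 8.52 and 8.38 after stroke, a change of -0.32 ± 0.087 (SE, adjusted p = 0.157). The stroke arrays lay below the naive arrays in each genotype. The naive arrays also stood apart, the knockout label at -0.28 against C57BL/6 without overlap (adjusted p = 0.127), while the stroke means were 8.56 and 8.53.

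Of the 6 vesicle proteins Slc30a3 alone passed the threshold on the mean measure, where 1.03 percent of all genes were called lower. Syp, or synaptophysin, a membrane protein of nearly every vesicle, had a mean change of -0.01 (95 percent interval -0.17 to 0.14), and Sv2a, a vesicle glycoprotein bound by an antiepileptic drug, -0.04 (95 percent interval -0.16 to 0.08). Syn1 and Syn2, synapsins that tether vesicles in reserve, had -0.17 (adjusted p = 0.314) and -0.03 (adjusted p = 0.871). Sv2b, a relative of Sv2a, stood at the other end of the 31 genes with 0.20 ± 0.066 (SE, adjusted p = 0.124).

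Cacna1a encodes the pore of the P/Q-type calcium channel, the main calcium entry for release at many central synapses. Its values were 9.17, 9.12, 8.94 and 8.81 in naive C57BL/6 and 8.64, 8.73, 8.61 and 8.59 after stroke, without overlap, and it fell by 0.37 ± 0.087 (SE, adjusted p = 0.0377). The knockout label read 9.14, 9.10, 8.99 and 8.89 naive and 8.87, 8.90, 8.71 and 8.82 after stroke, groups that overlapped, with a change of -0.21 (adjusted p = 0.515). The C57BL/6 call was lost in 7 of 16 fits that left out an array (adjusted p = 0.0506 to 0.116) and when only the groups compared were fitted (adjusted p = 0.123). Cacna1b, the pore of the N-type channel, had changes of -0.25 (adjusted p = 0.189) and 0.01 (adjusted p = 0.996).

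Camkk2, the kinase that switches on CaMKI, CaMKIV and AMP-activated kinase in response to calcium, read 8.66, 8.55, 8.50 and 8.72 in naive C57BL/6 and 8.14, 8.12, 7.87 and 7.89 after stroke. The knockout label read 8.58, 8.67, 8.43 and 8.31 naive and 8.02, 8.14, 7.89 and 7.97 after stroke. No stroke array reached a naive array in either genotype. The gene fell by 0.60 ± 0.094 (SE, adjusted p = 0.0018) and by 0.49 ± 0.094 (SE, adjusted p = 0.0134). Camk2a and Camk2b, the subunits of CaMKII, the most abundant kinase of the postsynaptic density, had mean changes of -0.24 (adjusted p = 0.0989) and -0.14 (adjusted p = 0.22).

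**Figure D3:**
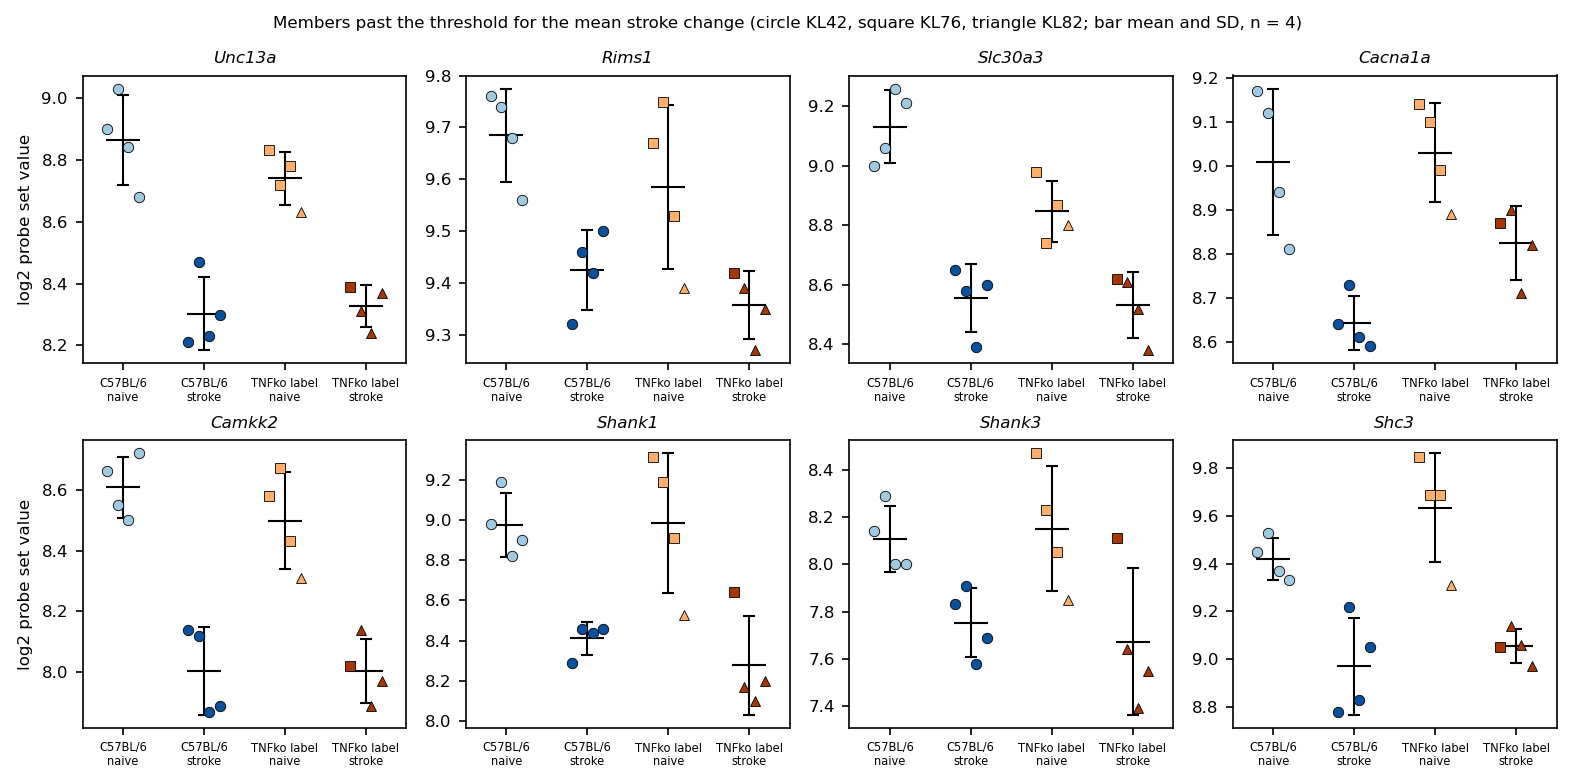
Log2 values of the 8 genes whose mean stroke change passed the threshold, in each array by group; bars are the group mean and SD (n = 4) and symbols the sample name prefix. The stroke arrays of Unc13a, Slc30a3, Camkk2 and Shc3 lie below the naive arrays in each genotype, and in Shank1, Shank3, Rims1 and Cacna1a the arrays of the knockout label overlap.

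None of the 4 glutamate receptor subunits measured passed the threshold. The NMDA receptor subunits Grin2a and Grin2b had mean changes of -0.22 (adjusted p = 0.0658) and -0.21 (adjusted p = 0.117). In C57BL/6 the 4 stroke arrays of Grin2a, 9.36 to 9.69, lay below the naive arrays, 9.70 to 10.02. The AMPA receptor subunits Gria1 and Gria2 had mean changes of 0.09 (95 percent interval -0.06 to 0.23) and 0.04 (95 percent interval -0.12 to 0.21).

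Of the SHANK scaffolds, which link receptor complexes to the actin skeleton of the spine, Shank1 read 8.98, 9.19, 8.82 and 8.90 in naive C57BL/6 and 8.29, 8.46, 8.44 and 8.46 after stroke. Arrays of the knockout label read 9.31, 9.19, 8.91 and 8.53 naive and 8.64, 8.17, 8.10 and 8.20 after stroke. Only the C57BL/6 groups were apart, since naive replicate 4 of the knockout label lay below stroke replicate 1. The change was -0.56 ± 0.14 in C57BL/6 (SE, adjusted p = 0.0491) and -0.71 ± 0.14 in the knockout label (SE, adjusted p = 0.0188). The first passed in 3 of 16 fits that left out an array and the second in 11, while the mean change of -0.63 passed in all 16.

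Shank3 read 8.14, 8.29, 8.00 and 8.00 in naive C57BL/6 and 7.83, 7.91, 7.58 and 7.69 after stroke, without overlap. In the knockout label the values were 8.47, 8.23, 8.05 and 7.85 naive and 8.11, 7.64, 7.39 and 7.55 after stroke, with overlap. Neither change passed alone (-0.36, adjusted p = 0.204, and -0.48, adjusted p = 0.2), and the mean of -0.42 did (adjusted p = 0.0237), in 10 of 16 fits that left out an array. Shank2, with 3 probe sets, had mean changes of -0.07 to -0.16, none past the threshold.

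Shc3, the neuronal Shc adaptor that relays signals from neurotrophin receptors, read 9.45, 9.53, 9.37 and 9.33 in naive C57BL/6 and 8.78, 9.22, 8.83 and 9.05 after stroke. The knockout label read 9.85, 9.69, 9.69 and 9.31 naive and 9.05, 9.14, 9.06 and 8.97 after stroke. The groups were apart in each genotype, and the gene fell by 0.45 ± 0.11 (SE, adjusted p = 0.041) and by 0.58 ± 0.11 (SE, adjusted p = 0.0118). The C57BL/6 call held in 6 of 16 fits that left out an array and the other in 13. Dlg4, which encodes PSD-95, and Nlgn1, the adhesion protein neuroligin-1, had mean changes of -0.12 (adjusted p = 0.29) and 0.04 (95 percent interval -0.09 to 0.17). Of the 6 genes in the scaffold group 3 fell on the mean measure, against 1.03 percent of all genes, with a median of -0.29.

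**Figure D4:**
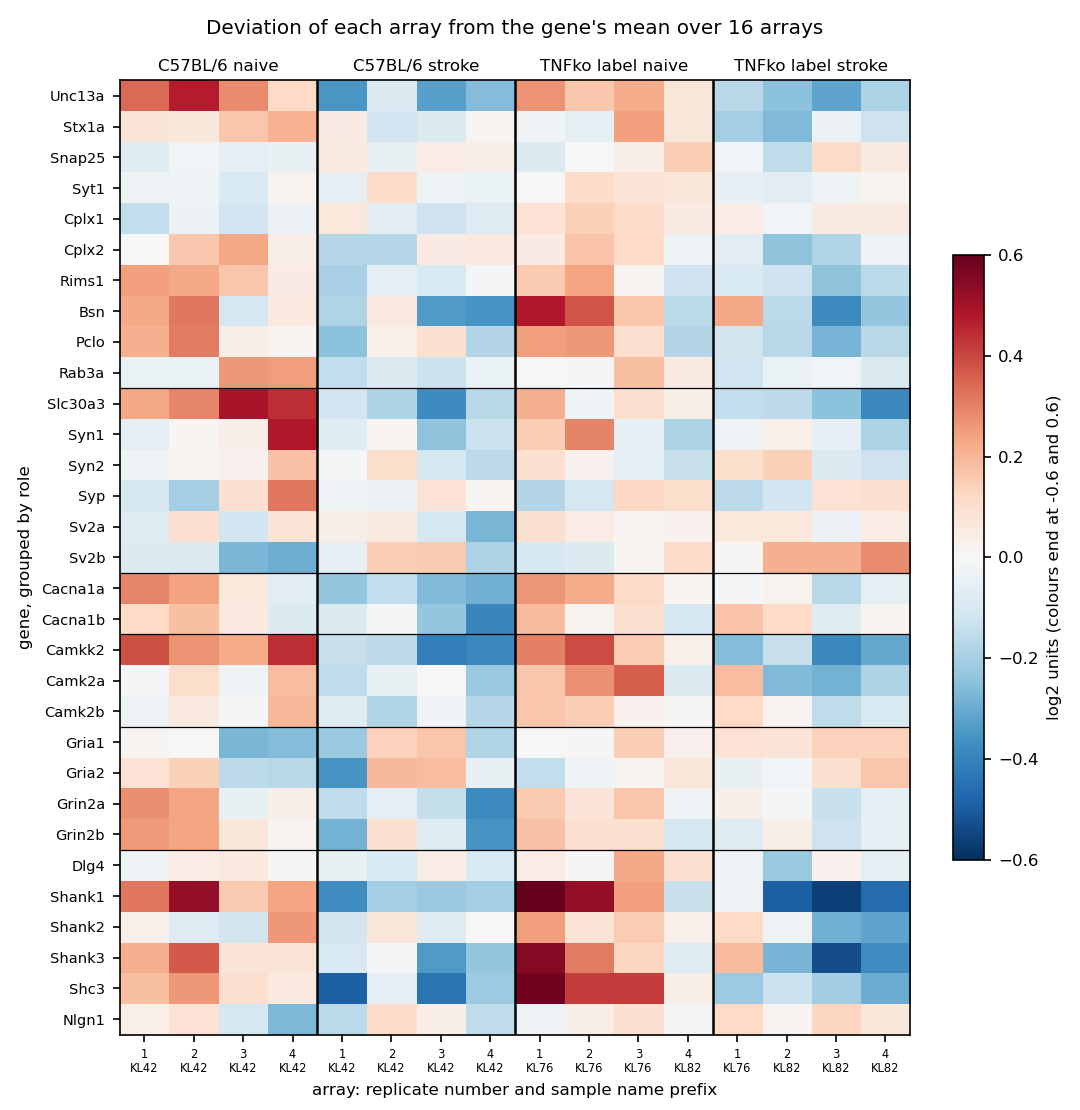
Deviation of each array (columns, by group) from the gene's mean over all 16 arrays (log2, colour), with the 31 genes in rows by role. Unc13a, Slc30a3, Camkk2, Shank1 and Shc3 are low in the stroke columns, and the naive KL82 column of the knockout label is lower than its naive KL76 columns for Shank1, Shank3, Bsn and Shc3.

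The naive KL82 array, replicate 4 of the knockout label, touched several of these results. It lay below all 3 naive KL76 arrays for 19 of 31 genes, against 27.5 percent of all genes. It lay above them for 3 of 31, and the share of all genes above was not computed. Its distance from the KL76 mean was -0.61 for Shank1, -0.50 for Bsn, -0.43 for Shc3 and -0.40 for Shank3. Within KL76 and within KL82, 22 of 31 stroke changes lay below 0 in each and 20 in both, with medians of -0.11 and -0.08. The shares of all genes below 0 within a prefix were not computed, so these counts only describe the 31 genes. Unc13a changed by -0.39 within KL76 and -0.32 within KL82, Camkk2 by -0.54 and -0.31, Shank1 by -0.50 and -0.37, Shc3 by -0.69 and -0.25, and Slc30a3 by -0.24 and -0.30. The direction was the same in each prefix for these 5 genes, each with 3 arrays against 1 (naive against stroke in KL76, stroke against naive in KL82). Bsn changed by -0.11 and -0.10, against -0.35 without the prefix. The part of the prefix in the genotype comparisons cannot be told apart from genotype.

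Between genotypes none of the 31 genes passed the threshold. In naive brain 0.166 percent of all genes were called lower in the knockout label and 0.221 percent higher, and 2 of the 31 had an unadjusted p under 0.05 in limma, Slc30a3 and Cplx1, against 16.6 percent of all genes. These were also the genes whose groups did not overlap, Slc30a3 lower, against 4.15 percent of all genes, and Cplx1 higher by 0.18 (adjusted p = 0.191), against 4.5 percent. After stroke the shares were 0.271 and 0.166 percent, and the 2 genes with an unadjusted p under 0.05 (11.3 percent of all genes) were the calcium channels, Cacna1b with 0.24 (adjusted p = 0.345) and Cacna1a with 0.18 (adjusted p = 0.443).

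The difference of the stroke changes between genotypes, tested directly as an interaction, passed for 0 of 31 genes and for 0 percent of all genes. In limma 1 of the 31 had an unadjusted p under 0.05, against 7.42 percent of all genes. This was Slc30a3, whose decrease was smaller in the knockout label by 0.26 (95 percent interval 0.01 to 0.52, adjusted p = 0.669). The interval was -0.10 to 0.40 for Unc13a, -0.17 to 0.39 for Camkk2, -0.57 to 0.27 for Shank1 and -0.45 to 0.19 for Shc3. These widths are near the size of the stroke changes themselves, so equal responses were not shown. Over the 31 genes the stroke changes of the genotypes, which share no arrays, had a Pearson r of 0.83, against 0.4 over all genes. This is a description across genes that are not independent and were chosen with earlier results of these data known.

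**Figure D5:**
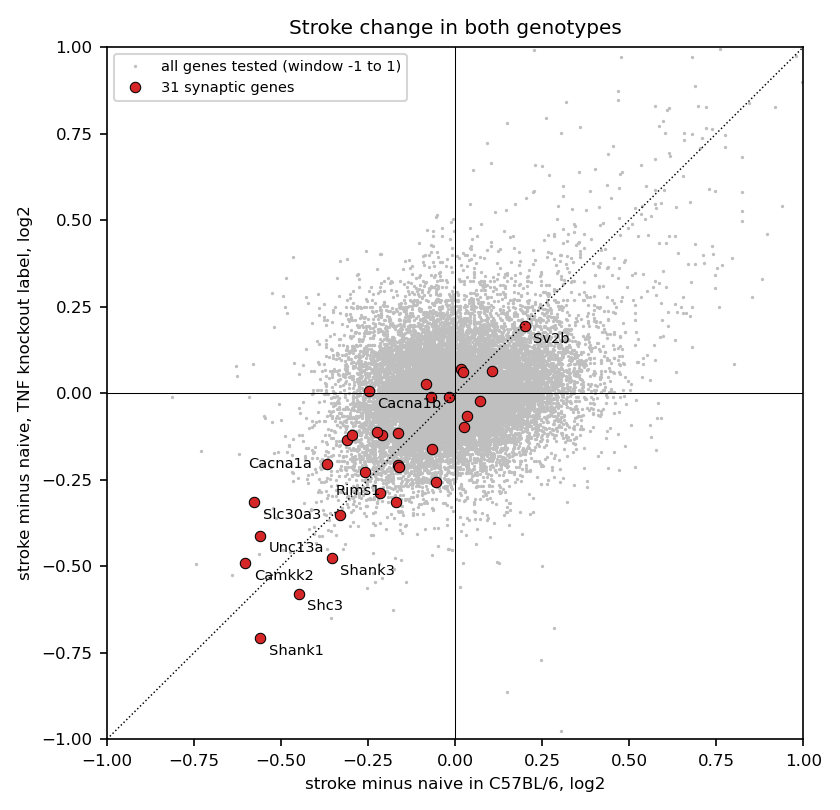
Stroke change in C57BL/6 (horizontal axis, log2) against stroke change in the TNF knockout label (vertical axis, log2) for the 31 genes (red, some named) over all genes tested (grey); 35 genes fall outside the axes. Most of the 31 lie in the lower left, 22 below 0 on each axis, and Sv2b lies above 0 on each.

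Promoter sequence was looked at because several of these genes fell after stroke. RefSeq (GRCm38.p6) gave a window of 250 bases before a transcript start for 22 of the 31 genes, and 11 of those windows reach into the gene from another start. A GC box, GGGCGG on either strand, the site known for Sp1-type factors, was present in 4 of the 5 windows of genes past the threshold, in 10 of 17 windows of the other members and in 33 percent of all 27025 windows. The windows also differ in base content, with a median GC content of 68.0 percent in the 5, 61.2 percent in the 17 and 52.0 percent over all, and median CpG counts of 19, 15 and 6, and the part of base content in the GC box shares was not tested. The cAMP response element TGACGTCA was in the Syn1 window alone, against 1.6 percent of all windows, and the E-box CACGTG in none, against 6.04 percent. Shown are Unc13a and Rims1, which fell and hold GC boxes (in capitals), and Slc30a3, which fell and holds none. In Slc30a3 the capitals are TATAAA and ATTGG, which is CCAAT on the other strand. On either strand, TATAAA was in 3507 and CCAAT in 9331 of all 27025 windows. Among members not past the threshold, Sv2b held TATAAA too, and Cacna1b, Rab3a and Syt1 held CCAAT. Also shown is Syp, a gene with a mean change of -0.01, which holds GC boxes too. The Unc13a sequence is the 233 bases outside the gene at chr8:71671775-71672007, minus strand, Rims1 lies at chr1:22806159-22806408, minus strand, Slc30a3 at chr5:31108245-31108494, minus strand, and Syp at chrX:7638330-7638579, plus strand.
Unc13a: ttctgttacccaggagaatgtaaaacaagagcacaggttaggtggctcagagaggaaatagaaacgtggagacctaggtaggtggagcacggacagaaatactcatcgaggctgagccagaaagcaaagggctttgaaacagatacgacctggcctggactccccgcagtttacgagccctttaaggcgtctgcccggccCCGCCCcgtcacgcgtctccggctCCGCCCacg
Rims1: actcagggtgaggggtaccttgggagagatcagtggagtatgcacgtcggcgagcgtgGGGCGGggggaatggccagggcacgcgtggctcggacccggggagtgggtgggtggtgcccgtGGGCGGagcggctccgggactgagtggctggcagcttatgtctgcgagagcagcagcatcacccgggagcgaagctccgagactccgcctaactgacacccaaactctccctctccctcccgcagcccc
Slc30a3: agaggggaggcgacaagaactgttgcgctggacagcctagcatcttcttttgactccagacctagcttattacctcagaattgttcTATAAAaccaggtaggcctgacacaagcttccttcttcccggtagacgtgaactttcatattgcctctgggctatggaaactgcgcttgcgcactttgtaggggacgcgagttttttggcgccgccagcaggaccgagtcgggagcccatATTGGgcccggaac
Syp: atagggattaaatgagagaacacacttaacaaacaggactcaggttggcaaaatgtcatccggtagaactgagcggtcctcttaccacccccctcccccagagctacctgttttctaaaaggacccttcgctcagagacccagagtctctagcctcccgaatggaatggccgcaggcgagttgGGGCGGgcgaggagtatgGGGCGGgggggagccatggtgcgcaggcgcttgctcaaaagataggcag
A GC box was therefore found with and without a stroke change, and a match is letters in a window, not a bound site.

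The other genes of the pathway came from lists of release, receptor and zinc transport genes. Among 68 other presynaptic genes 2 fell in C57BL/6, Rims3 (-0.41, adjusted p = 0.0472), a small RIM, and Ppfia4 (-0.38, adjusted p = 0.0251), a liprin of the active zone, and 2 rose, Lin7c (0.36, adjusted p = 0.0436) and Snap23 (0.37, adjusted p = 0.0491). These are 2.94 percent of the list in each direction, against 0.336 percent lower and 1.34 percent higher over all genes. In the knockout label none passed, and on the mean measure 4 fell, Rims3, Ppfia4, Rph3a and Ppfia3, or 5.88 percent against 1.03 percent of all genes. The median of the mean change over all 68 genes was -0.05.

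Of 67 other postsynaptic genes none passed in C57BL/6 and 1 fell in the knockout label, Homer1 (-0.55 ± 0.1, SE, adjusted p = 0.0134), the scaffold that binds SHANK proteins, or 1.49 percent against 0.105 percent of all genes. On the mean measure 4 fell, Camk4 (-0.30), a kinase that CaMKK2 activates, Homer1 (-0.39), Dlgap3 (-0.41), which links PSD-95 to SHANK, and Neto2 (-0.29), and 1 rose, Shc1 (0.26), the Shc adaptor of most cell types. That is 5.97 percent lower and 1.49 percent higher, against 1.03 and 1.78 percent of all genes. The median over all 67 genes was -0.10. Of 14 other zinc transporters 1, Slc39a1, rose in C57BL/6 (0.38, adjusted p = 0.0435), or 7.14 percent against 1.34 percent of all genes. On the mean measure Slc39a1 rose and Slc30a10 fell (-0.21, adjusted p = 0.0496). That is 7.14 percent in each direction, against 1.78 percent higher and 1.03 percent lower over all genes.

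Markers of cell types were read beside these changes, since in whole tissue fewer cells of a type and less RNA per cell cannot be told apart. None of 17 general neuron markers passed in either genotype, with median changes of -0.07 and -0.04, and their mean level was 9.88 to 9.96 in naive and 9.83 to 9.89 in stroke C57BL/6 arrays. In the knockout label it was 9.96 to 10.04 and 9.85 to 9.97. On the mean measure 2 of the 17 fell, Tubb3 and Mapt, against 1.03 percent of all genes. None of 12 cortical excitatory, 13 inhibitory or 9 striatal neuron markers, nor of 15 markers of thalamus, hypothalamus and cerebellum, passed in either genotype. Changes below 0 in C57BL/6 and the knockout label numbered 10 and 14 of 17 general and 6 and 12 of 12 cortical excitatory markers. They numbered 9 and 11 of 13 inhibitory, 7 and 7 of 9 striatal and 12 and 12 of 15 thalamus, hypothalamus and cerebellum markers. Of all genes 51.2 and 49.9 percent lay below 0. The mean level over the 31 synaptic genes was 9.75 to 9.85 in naive and 9.55 to 9.69 in stroke C57BL/6 arrays, and 9.70 to 9.87 and 9.58 to 9.70 in the knockout label.

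Markers of reactive glia moved the other way. Of 20 reactive astrocyte markers 11 rose in each genotype, with median changes of 0.69 and 0.71, and their mean level went from 5.63 to 5.80 in naive C57BL/6 arrays to 6.21 to 6.80 after stroke. In the knockout label it was 5.61 to 5.71 naive and 6.50 to 6.54 after stroke. Of 19 activated microglia and macrophage markers 9 rose in C57BL/6 and 7 in the knockout label, with medians of 0.43 and 0.26. Over all genes 1.34 percent rose in C57BL/6 and 0.537 percent in the knockout label. The part of these cells in the synaptic decreases was not tested.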

How the data were processed

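Whole brain RNA, isolated with Trizol per the labels' protocols, was measured on 16 arrays, 4 in each group. The authors deposited 1 log2 value per probe set and array, rounded to 2 decimals, and array medians of 6.01 to 6.05 show that the arrays had been brought to a common scale. Tools named per the submitters' processing notes are Partek, RMA, GCRMA and GCOS, with no step given for any. Symbols were taken from the platform annotation in GEO: 21789 of 28944 probe sets have a single one, 1621 have several and 5534 have none. Promoter windows came from RefSeq. No detection calls or scanner intensities were used here. The number of arrays limits the precision.

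Group means of all 4 groups were estimated in 1 linear model with limma 3.58.1 in R 4.3.3 (lmFit, eBayes, 12 residual and 7.52 prior degrees of freedom), two-sided, with Benjamini-Hochberg adjustment over 19938 genes and a threshold of 0.05. Unc13a probe sets were adjusted over all single-symbol probe sets. The code was tested on simulated data with known changes. All members are named, and other genes are named where they passed the threshold or, above 6 of a list, had the smallest p. The members and lists were chosen with earlier results of these data known. The labels do not say what the replicate numbers share, so they were not taken as pairs. Other settings tried were normalization, centring, probe set choice, the filter on dim genes, variance models, array weights, the threshold, the groups fitted, the replicate number, the prefix and leaving out each array.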

Additional observations from a re-analysis of the deposited data

Results flagged for a closer look

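Among 132 sets of 4 values, each gene in each group and the 2 further Unc13a probe sets counted, 2 (1.52 percent) held 1 array far from the other 3, where chance gives about 1 in 20. Cplx1 read 11.10 in stroke replicate 2 of the TNF knockout label, against 11.16 to 11.17 in the other 3. Shank1 read 8.29 in stroke replicate 1 of C57BL/6, against 8.44 to 8.46.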

How the results depend on the processing

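Of 584 counts and medians recomputed under other settings, 544 stayed within the range set for no change and 40 moved. Of 681 single gene values 581 kept their side of the threshold, 74 lost it, 26 gained it and 0 changed sign. For the mean stroke change the count of 8 genes lower became 13 with trended variances, 13 at a threshold of 0.1 and 5 with the prefix as a term, and for the knockout label the count of 4 became 0 with the prefix. Over all genes the 205 called lower for the mean became 323, 435 and 75, and the 21 of the knockout label became 4. Unc13a probe sets lower in C57BL/6 went from 1 to 2 with quantile normalization, without the dimmest 33.3 percent of genes, with trended variances, and at a threshold of 0.1. In the knockout label they went from 2 to 1 with the prefix and with only the groups compared. The probe set higher in the naive knockout label went from 1 to 0 with only the groups compared. Without each array in turn the counts of genes lower ranged from 3 to 6 in C57BL/6, 0 to 5 in the knockout label and 6 to 11 for the mean, and the Unc13a probe set counts from 1 to 2, 0 to 2 and, naive, 0 to 1, with all 3 lower for the mean in each such fit. Over all genes the numbers called lower ranged from 11 to 168 in C57BL/6, 2 to 28 in the knockout label and 110 to 254 for the mean. The cause was not tested. At the gene level, with 1 probe set or the mean of the probe sets per gene, no member was called between genotypes, or for the difference of the stroke changes, in any of these fits. Of the 3 single Unc13a probe sets, the 1 named above passed in naive brain.

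Of 16 correlations between the deviations of same-numbered arrays, 14 lay above 0 and 8 above 0.1 (range -0.07 to 0.34). In 18 of 32 cases an array correlated best with its own number, against 8 if all 4 were equally likely, a hint from the data that numbers share something. Since not every pair of any comparison exceeded 0.1 and the labels name no shared source, the numbers were not taken as pairs. The replicate number as a block gave 7 genes lower in C57BL/6, 5 in the knockout label and 11 for the mean, and 2 Unc13a probe sets lower in C57BL/6. Over all genes the block raised the calls from 67 lower and 267 higher to 126 and 433 in C57BL/6, and from 205 and 354 to 303 and 462 for the mean. In the knockout label they went from 21 lower and 107 higher to 25 and 115.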
